A study of Mus musculus with 24 samples.

Results

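The 7 genes described here encode subunits of the GABA-A receptor, the chloride channel that carries most fast inhibition in the brain. They were chosen by symbol: 4 alpha subunits (Gabra2, Gabra3, Gabra4, Gabra5), 2 beta subunits (Gabrb1, Gabrb2) and the delta subunit (Gabrd), out of 55177 annotated genes in the deposited tables. The RNA came from primary cortical neurons cultured from mouse embryos of day 16.5, where the labels' protocol counts the cortex of each embryo as a biological replicate. The labels do not say which embryo gave which library, so the p-values measure the spread between libraries. The series holds 24 libraries in 10 groups of 2 or 3.

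All cultures, depolarized ones included, spent the night before harvest in tetrodotoxin (TTX, 1 µM), which blocks sodium channels and so action potentials, and D-AP5 (100 µM), an antagonist of NMDA receptors. After that night, KCl at 50 mM was applied to the depolarized cultures for 30 min. The 4 libraries from day 7 in vitro (DIV7) came from naive wild-type cultures given 0.1% DMSO, 2 at rest and 2 under KCl. The 20 libraries from day 18 (DIV18) came from cultures carrying CRISPR guide RNAs and no DMSO label. They were non-targeting guide cultures (NT, 2 at rest and 2 under KCl) and 4 kinds of Smarcc2 knockout culture. Smarcc2 is a core subunit of the BAF chromatin remodelling complex. The knockout carried an empty vector (KO+vector, 3 at rest and 3 under KCl), wild-type Smarcc2 (WT, 2 and 3), Smarcc2 with the S586E substitution (3 at rest) or with the S586A substitution (2 under KCl). The knockouts are mixed cultures treated with guide RNA, not clones. DIV7 RNA was poly(A)-selected, while DIV18 RNA was total RNA depleted of ribosomal RNA. Age, RNA selection, guide RNA and DMSO therefore change together between DIV7 and DIV18 and cannot be told apart.

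GABA-A receptors are pentamers built mostly from alpha and beta subunits with a gamma or a delta subunit. The alpha subunit sets much of the kinetics and place of the receptor: alpha2 and alpha3 are found at synapses early in life, alpha5 sits largely outside synapses and is prominent in developing cortex and in hippocampus, and alpha4 often joins delta in extrasynaptic receptors that carry a steady, tonic current. Beta subunits are needed for assembly and form the GABA binding site together with an alpha subunit. In rodent forebrain the subunit set is known to shift after birth.

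The DIV7 libraries each summed to between 24536056 and 30135576 estimated counts, those of DIV18 to between 14510199 and 24024959, and a member held between 147 (Gabrd) and 7020 (Gabrb1) counts in a library. All 7 members passed the filter on low counts in every fit. Smarcc2 was 47.1 to 64.1 CPM (normalized counts scaled to a common library total) in resting KO+vector libraries against 236.9 and 265.1 in resting NT, a log2 difference of -2.23 (SE 0.14, adjusted p = 7.3e-08, edgeR). Fos, an early gene of neuronal activity, rose under KCl at DIV7 by a log2 fold change of 7.23 (SE 0.08, adjusted p = 4.4e-08, edgeR). At DIV18 its rise was 3.36 in NT (SE 0.61, adjusted p = 0.091, edgeR). It was 3.80 in KO+vector (SE 0.52, adjusted p = 0.0033, edgeR) and 4.52 in WT (SE 0.63, adjusted p = 0.0057, edgeR). Fos under KCl was 38.5 and 113.4 CPM in NT, 51.2 to 110.8 in KO+vector and 32.7 to 196.9 in WT. The neuronal markers Map2, Rbfox3, Tubb3, Snap25 and Syt1 had at least 2876 counts in every library. Markers of other cells were present too. The summed level of 6 astrocyte markers was 1275.1 to 1765.3 CPM in the 4 NT libraries against 742.0 to 1248.6 in the 6 KO+vector libraries, and that of 8 markers of the oligodendrocyte lineage was 130.9 to 212.8 against 113.9 to 151.8. Of the microglial markers, C1qa was at 0 in 15 of 20 DIV18 libraries, Tmem119 in 13 and P2ry12 in 6. Csf1r (29 to 135 counts), Aif1 (15 to 63) and Cx3cr1 (2 to 18) were at 0 in none. Of the fibroblast or vessel markers, Cldn5 was at 0 in 18 and Lum in 4. The others, among them Pdgfrb (54 to 144) and Pecam1 (10 to 38), were at 0 in none. In such mixed cultures, fewer cells of a type and less RNA per cell cannot be told apart.

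The make-up of subunit mRNA differed sharply between the ages. TPM counts transcripts per unit of length, so levels of different genes within a library can be compared. Between the ages only shares are compared here, because 3 small RNA genes (Rn7s1, Rn7s2 and Rn7sk) took 46.9% of the deposited TPM at DIV18 (SD 3.36, range 42.4 to 53.5, n = 20) and 0.0225% at DIV7 (SD 0.0031, n = 4). Each share is the member's percentage of the summed TPM of the 7 genes in a library, so the shares depend on each other and are a description with no test.

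Gabra5, the alpha5 subunit, led at DIV7 and lost that place. Its TPM was 105.1 and 100.3 at rest and 122.2 and 112.2 under KCl at DIV7, or 42.0% of the 7 genes (SD 0.60, range 41.2 to 42.7, n = 4). In the 20 DIV18 libraries its share was 11.2% (SD 1.49, range 8.95 to 13.8). The lowest DIV7 share thus stood far above the highest at DIV18, whatever the construct or state. Among the 4 alpha genes alone, Gabra5 took 60.3% (SD 1.38) at DIV7 and 24.1% (SD 2.95) at DIV18.

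Gabrb2, the beta2 subunit, went the other way. It held 10.3% (SD 0.20, range 10.0 to 10.5) at DIV7 and 25.6% (SD 1.12, range 23.6 to 27.4) at DIV18, where its mean level was the highest of the 7 in each of the 8 groups. In 2 of those groups (NT under KCl and resting S586E) its range overlapped that of Gabrb1, the next in order. Within the pair of beta genes, Gabrb1 led at DIV7 with 63.1% (SD 1.36) and held 43.8% (SD 3.04) at DIV18. At DIV7, 39.9% of Gabrb1 TPM came from a form of 799 bases with 2.77% of its counts. The long form Gabrb1-201 averaged 27.7 TPM there, against 25.1 for Gabrb2-201, so the lead depends on the short form.

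Gabra4 and Gabrd, which can assemble together, both took larger shares at DIV18. Gabra4 was 5.07% (SD 0.40, range 4.68 to 5.54) at DIV7 and 11.1% (SD 1.23, range 9.69 to 14.7) at DIV18. Gabrd was the least abundant member at DIV7 at 2.39% (SD 0.34, range 1.95 to 2.70) and stood at 8.18% (SD 2.01, range 4.12 to 11.2) at DIV18. The ratio of Gabrd to Gabra4 TPM was 0.474 (SD 0.084) at DIV7 and 0.741 (SD 0.19) at DIV18, with ranges that overlap (0.371 to 0.577 and 0.381 to 1.06).

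The other 3 members moved less when all transcripts were counted. Gabra2 went from 13.3% (SD 0.62, range 12.5 to 13.9) to 17.5% (SD 1.22, range 15.1 to 19.1). Counting all transcripts, it was the highest of the 4 alpha genes in all 20 DIV18 libraries, with 37.7% (SD 2.39) of their TPM. That lead was lost with protein-coding transcripts alone, where Gabra5 had the highest alpha TPM in 17 of 20 DIV18 libraries, Gabra4 in 2 and Gabra2 in 1. On that measure Gabra5 held 31.8% (SD 3.25) of the alpha TPM at DIV18, Gabra4 25.9% (SD 3.14) and Gabra2 24.2% (SD 2.06), after 72.2% (SD 1.31), 6.70% (SD 0.55) and 7.36% (SD 0.36) at DIV7. The protein-coding form of Gabra2 made up 48.6% of its TPM at DIV18. Gabra3 held 9.33% (SD 0.83, range 8.25 to 10.3) at DIV7 and 6.52% (SD 1.34, range 4.14 to 9.22) at DIV18. Gabrb1 held 17.7% (SD 1.21, range 16.8 to 19.4) and 19.98% (SD 2.27, range 17.1 to 25.0). The ages overlapped for Gabra3 and Gabrb1 and were apart for the other 5 members. This count says little about single members, because the shares depend on each other and a fall in Gabra5 by itself raises the rest. Between resting NT and resting DIV7 libraries, 52.7% of all genes tested were called (edgeR, below). With the 12 other GABA-A subunit genes added to the sum, the 7 members made up 50.3% (SD 1.65, n = 4) of the subunit TPM at DIV7 and 43.1% (SD 2.02, n = 20) at DIV18.

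**Figure D1:**
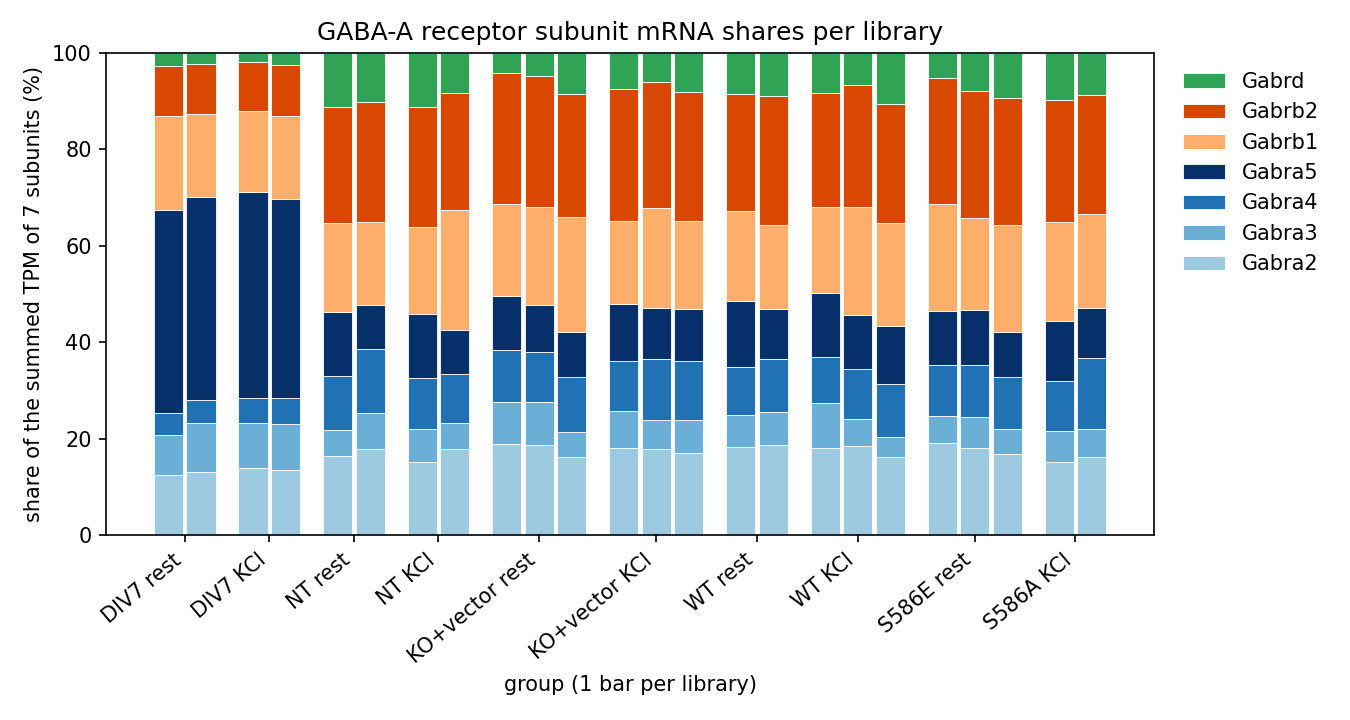
Share of each of 7 GABA-A receptor subunit genes in their summed TPM (vertical axis, percent), with 1 stacked bar per library, grouped by age, construct and state. Gabra5 fills 41.2 to 42.7% of each DIV7 bar and 8.95 to 13.8% of each DIV18 bar, while Gabrb2 fills 10.0 to 10.5% and 23.6 to 27.4%.

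The order of the levels within the groups showed the same turn. In resting DIV7 libraries mean TPM ran from Gabra5 (102.7) through Gabrb1 (44.8), Gabra2 (31.2), Gabrb2 (25.4), Gabra3 (22.6) and Gabra4 (11.6) to Gabrd (6.13), and no neighbours in this order overlapped. The place of Gabrb1 includes its short form, and Gabrb1-201 alone averaged 27.7 TPM over the DIV7 libraries. In resting NT libraries at DIV18 it ran from Gabrb2 (28.9) through Gabrb1 (21.0), Gabra2 (20.1), Gabra4 (14.4), Gabra5 (13.2) and Gabrd (12.5) to Gabra3 (7.60). There the ranges of Gabrb1 and Gabra2 overlapped, as did those of Gabra4 with Gabra5 and of Gabra5 with Gabrd, each over 2 libraries.

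The same shift was tested gene by gene between NT cultures at DIV18 and naive cultures at DIV7, in a joint fit of all 24 libraries (edgeR quasi-likelihood test, Benjamini-Hochberg adjustment over 22459 genes). At rest 6 of 7 members passed an adjusted p of 0.05, 5 higher and 1 lower at DIV18, beside 52.7% of all genes tested (26.8% higher and 25.9% lower). Under KCl again 5 were higher and 1 lower, beside 53.6% (27.2% higher and 26.4% lower). More than every other gene was called between these preparations, so a count of calls says little about the members. The median log2 difference was 0.82 for the members and 0.01 for all genes at rest, and 0.61 and 0 under KCl.

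The alpha subunits split. Gabra5 was 125.9 and 117.8 CPM in resting DIV7 libraries and 43.7 and 29.5 CPM in resting NT libraries, and 151.4 and 139.9 against 44.1 and 32.0 CPM under KCl. Every DIV7 value exceeded every NT value, and Gabra5 fell by 1.73 on the log2 scale at rest (SE 0.18, adjusted p = 7.7e-08, edgeR) and by 1.94 under KCl (SE 0.19, adjusted p = 1.6e-08, edgeR). Gabra4 was 20.5 and 19.7 CPM at rest at DIV7 and 49.5 and 56.8 in NT, a rise of 1.40 at rest (SE 0.13, adjusted p = 9.7e-09, edgeR) and of 1.11 under KCl (SE 0.13, adjusted p = 2.6e-07, edgeR). Gabra2 was 59.8 and 60.3 CPM at DIV7 and 104.5 and 106.9 in NT at rest, a rise of 0.82 (SE 0.12, adjusted p = 4.5e-06, edgeR) and, under KCl, of 0.55 (SE 0.12, adjusted p = 0.00036, edgeR). Gabra3 overlapped between the ages at rest, with 30.7 and 33.7 against 25.3 and 33.1 CPM. Its log2 difference was -0.14 at rest (SE 0.22, adjusted p = 0.61, edgeR) and -0.45 under KCl (SE 0.22, adjusted p = 0.084, edgeR), and without the resting NT replicate 1 the resting value was 0.036 (adjusted p = 0.93, edgeR). The KCl difference of Gabra3 passed without the low-count filter (adjusted p = 0.0045) and when the 4 KCl libraries alone were fitted (adjusted p = 0.011, edgeR).

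Both beta subunits and delta were higher at DIV18. Gabrb2 was 46.4 and 45.4 CPM at rest at DIV7 and 125.9 and 115.7 in NT, a rise of 1.40 (SE 0.09, adjusted p = 3.5e-11, edgeR), and 1.24 under KCl (SE 0.09, adjusted p = 2.0e-10, edgeR). Gabrb1 was 197.6 and 183.6 CPM against 289.4 and 237.8, a rise of 0.47 at rest (SE 0.11, adjusted p = 0.0010, edgeR) and 0.61 under KCl (SE 0.11, adjusted p = 6.8e-05, edgeR). The resting call for Gabrb1 was lost when the effective lengths of its transcripts entered as offsets (0.21, adjusted p = 0.31, edgeR). Gabrd was 5.69 and 5.22 CPM at rest at DIV7 and 26.2 and 22.5 in NT. No NT value came near the DIV7 range, and the rise was the greatest among the 7, at rest 2.16 (SE 0.27, adjusted p = 9.2e-07, edgeR) and under KCl 2.09 (SE 0.27, adjusted p = 1.2e-06, edgeR). On the TPM scale the small RNAs lower all other values, and the median gene differed by -1.30 at rest and -1.24 under KCl. Relative to that median all 7 members had the direction given here. Without centring, Gabra2 and Gabrb1 were lower at DIV18 in both states and Gabra4 under KCl.

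**Figure D2:**
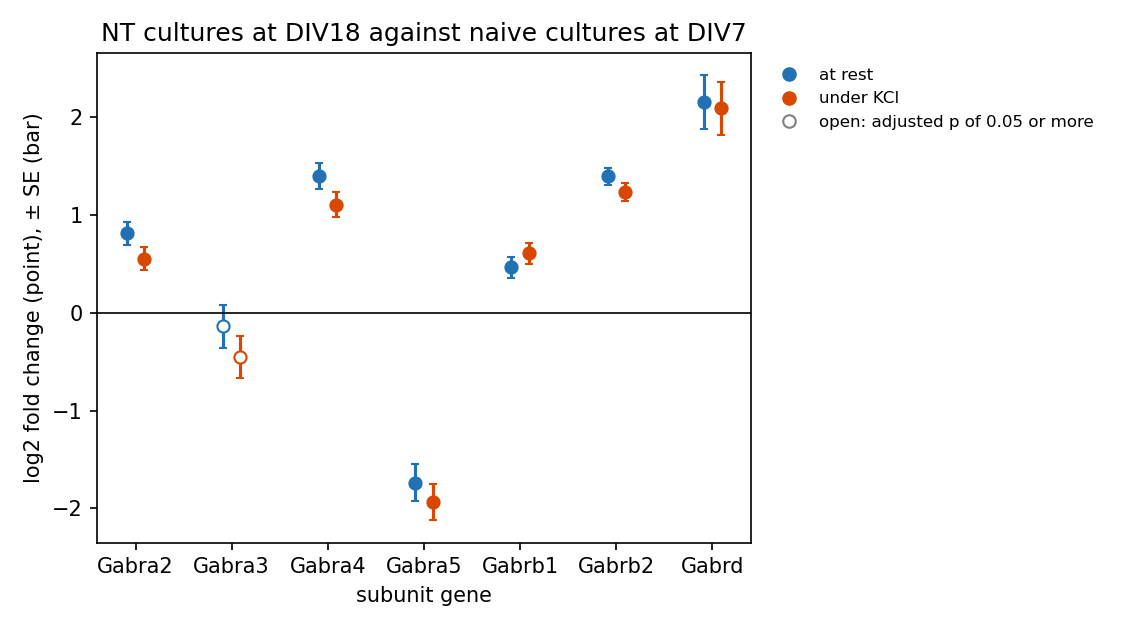
Log2 fold change (points) with its SE (bars) of the 7 subunit genes in NT cultures at DIV18 against naive cultures at DIV7, at rest and under KCl, with 2 libraries in each group; open points missed an adjusted p of 0.05. Gabrd (2.16 at rest) is highest, Gabra5 (-1.73) lowest, and Gabra3 is the single member with open points.

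Other genes of the GABA system were read against the same 52.7% of all genes called at rest. Of the 12 other GABA-A subunit genes, 8 were tested and 3 were higher at rest in NT at DIV18, among them Gabre by 2.40 and Gabrg3 by 0.43. Their median log2 difference was 0.16, against 0.01 for all genes. Of 33 genes of the GABA synapse, 32 were tested, and 16 were higher and 4 lower, beside 26.8% of all genes higher and 25.9% lower. Their median was 0.50. Slc12a5 (KCC2), the exporter that keeps neuronal chloride low, rose by 1.62 (SE 0.10, adjusted p = 3.5e-11, edgeR), and Slc12a2, the chloride importer, was not called. Abat and Aldh5a1, which break down GABA, rose by 1.37 and 1.12, and Slc6a11, a GABA transporter of astrocytes, fell by 1.75. Both GABA-B receptor genes were higher, Gabbr2 by 0.77 and Gabbr1 by 0.20. Among 19 tested genes of the postsynaptic scaffold and receptor trafficking, 10 rose and 3 fell. Those that rose include Iqsec3 (1.37) and the adhesion molecule Nlgn2 (0.47). Those that fell were the transport adaptor Trak1 (-0.82), Shisa7 (-0.42) and Dag1 (-0.30).

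Markers of other cells moved between the ages beside the members. In the joint fit the summed astrocyte markers were 449.1 and 513.6 CPM in resting DIV7 libraries and 1392.2 and 1626.8 in resting NT libraries, with 2 of 6 markers called higher. The summed markers of the oligodendrocyte lineage were 61.6 and 69.6 against 200.8 and 210.9 CPM, with 5 of 8 higher and 1 lower. Markers of inhibitory neurons gave 1 higher and 2 lower of 8. Among markers of excitatory neurons Slc17a7 was higher, and the other 4, among them Slc17a6, Neurod6 and Tbr1, were lower. Their part in the members' differences was not tested.

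Depolarization for 30 min at DIV7 was accompanied by small increases. Of the 7 members, 3 were called, all higher under KCl, beside 17% of the 19822 genes tested (7.34% higher). The median log2 fold change of the 7 was 0.23 and that of all genes -0.0014. Gabra2 was 67.2 and 68.4 CPM at rest and 83.4 and 83.5 under KCl, a rise of 0.30 (SE 0.05, adjusted p = 0.0087, edgeR). Gabrb2 was 52.1 and 51.6 CPM at rest and 60.9 in both KCl libraries, a rise of 0.23 (SE 0.05, adjusted p = 0.027, edgeR). Gabra5 was 141.3 and 133.7 CPM at rest and 168.6 and 155.2 under KCl, a rise of 0.24 (SE 0.06, adjusted p = 0.033, edgeR). The groups did not overlap for these 3, but the calls come from the same values. Throughout, with so few libraries per group, a lack of overlap describes the values and adds no support to a call. The share of all genes without overlap was not counted.

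The other 4 members missed the threshold at DIV7. Gabra4 (0.24, adjusted p = 0.064, edgeR) and Gabra3 (0.23, adjusted p = 0.074, edgeR) had values close to those of the called genes, with no overlap between the groups. Gabrb1 differed by 0.10 (adjusted p = 0.21, edgeR). Gabrd had 5.71 and 7.29 CPM under KCl around 5.92 and 6.39 at rest, a difference of 0.08 (SE 0.16, adjusted p = 0.79, edgeR), and without the KCl replicate 2 it was -0.11.

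The DIV7 calls rest on few libraries. Gabrb2 missed the threshold when any 1 of the 4 libraries was left out (adjusted p from 0.088 to 0.12, edgeR). Gabra5 missed it without resting replicate 1 (adjusted p = 0.068), resting replicate 2 (0.15) or KCl replicate 1 (0.15, edgeR), and Gabra2 without resting replicate 1 (adjusted p = 0.058, edgeR). Counting protein-coding transcripts alone, Gabra2 differed by 0.10 (adjusted p = 0.37, edgeR) and Gabra5 by 0.22 (adjusted p = 0.065, edgeR), so that 1 member, Gabrb2, was called. Gabrb2 in turn missed the threshold with DESeq2 (0.24, adjusted p = 0.062) and with length offsets (0.22, adjusted p = 0.10, edgeR). With length offsets Gabra5 missed it too (0.24, adjusted p = 0.059, edgeR), while Gabra4 passed (0.42, adjusted p = 0.029, edgeR). Shares of the 7-gene TPM moved by small amounts with KCl. Gabra5 held 42.0% (SD 0.03, n = 2) at rest and 42.0% (SD 1.03, n = 2) under KCl. Counting all transcripts, Gabra2 held 12.8% (SD 0.38) and 13.8% (SD 0.22), and Gabra4 4.74% (SD 0.08) and 5.39% (SD 0.20), both without overlap between the states. These rises were not kept with protein-coding transcripts alone, where both shares leaned lower under KCl and the states overlapped. There Gabra2 held 4.83% and 5.18% at rest and 4.59% and 4.87% under KCl. Gabra4 held 4.46% and 4.797% at rest and 3.94% and 4.53% under KCl. Of the 30 tested genes of the GABA synapse, 1 was called, Ubqln1, higher by 0.15 (adjusted p = 0.045, edgeR).

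At DIV18 edgeR called 0 of 7 members between KCl and rest. Calls among all genes were rare as well: 0.00955% of 20940 genes in NT, 0.0716% in KO+vector, 0.043% in WT and 0.449% for the mean of the 3 constructs. At an unadjusted p under 0.05, 1 member passed in NT, 0 in KO+vector, 0 in WT and 1 for the mean, and DESeq2 called 0 members in each. That member was Gabrb1. It was 284.3 and 233.4 CPM at rest and 278.3 and 343.1 under KCl in NT, groups that overlap, with a log2 difference of 0.26 (SE 0.11, unadjusted p = 0.033, adjusted p = 1.0, edgeR). In WT it differed by 0.19 (adjusted p = 0.98, edgeR), in KO+vector by -0.02 (adjusted p = 0.97, edgeR), and on the mean by 0.15 (SE 0.06, unadjusted p = 0.026, adjusted p = 0.55, edgeR). The log2 differences of the 7 members on the mean ran from -0.10 to 0.15. The difference between the NT response and the DIV7 response was called for 0 of 7 members (values from -0.32 to 0.14, 0 at an unadjusted p under 0.05), beside 1.82% of 22459 genes. Thus the DIV7 calls are not shown to differ from the DIV18 responses. The Fos response itself was lower in NT than at DIV7, by a log2 difference of -3.88 (SE 0.84, adjusted p = 0.015, edgeR).

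**Figure D3:**
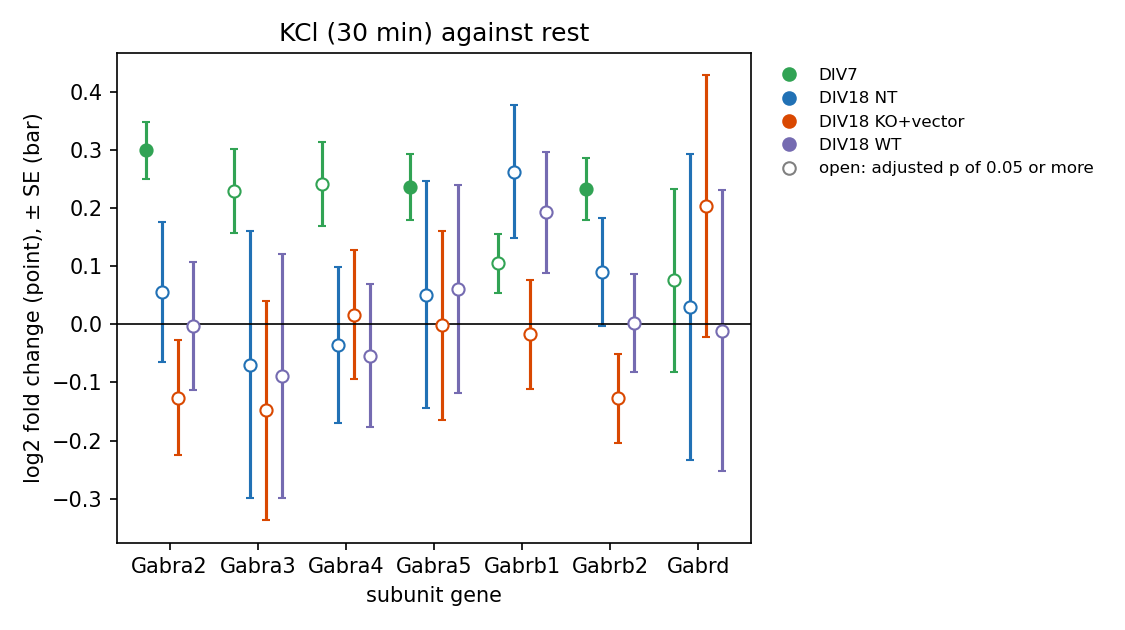
Log2 fold change (points) with its SE (bars) between KCl and rest for each subunit gene at DIV7 and, at DIV18, in NT, KO+vector and WT cultures, with 2 or 3 libraries per group; open points missed an adjusted p of 0.05. The filled points, 0.30 for Gabra2, 0.24 for Gabra5 and 0.23 for Gabrb2, are all from DIV7.

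Among the 7 members, delta differed most between KO+vector and NT at DIV18. Gabrd was 22.1 and 25.7 CPM in resting NT libraries and 11.2, 11.6 and 21.1 CPM in resting KO+vector libraries. Under KCl it was 21.9 and 27.0 CPM in NT and 14.7, 17.4 and 18.3 in KO+vector. All 6 KO+vector values were below all 4 NT values, but the third resting replicate was close to them. Over both states Gabrd was lower by 0.63 on the log2 scale in KO+vector (SE 0.17, adjusted p = 0.023, edgeR), the 1 member of 7 called, beside 11.2% of 20940 genes (7% lower). In single states it missed the threshold: -0.72 at rest (SE 0.24, adjusted p = 0.092, edgeR), where 0 of 7 members and 5.9% of genes were called, and -0.54 under KCl (SE 0.24, adjusted p = 0.27, edgeR), where 0 of 7 and 2.67% were. At an unadjusted p under 0.05, 2 members passed at rest (Gabrd and Gabrb2) and 1 under KCl (Gabrd), and DESeq2 called 2 at rest and 0 under KCl.

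This call depends on single libraries. Over both states it was lost without resting NT replicate 1 (adjusted p = 0.082), resting NT replicate 2 (0.0502), NT replicate 1 under KCl (0.097), resting KO+vector replicate 1 (0.051) or 2 (0.055), or KO+vector replicate 2 under KCl (0.054, edgeR), with log2 differences from -0.68 to -0.55. Without the resting KO+vector replicate 3, the resting difference was -1.07 (adjusted p = 0.0097, edgeR). With DESeq2 in place of edgeR the resting difference passed (-0.71, adjusted p = 0.043). Both single-state differences passed without the low-count filter, at rest (-0.73, adjusted p = 5.0e-05, edgeR) and under KCl (-0.56, adjusted p = 0.0077, edgeR), and with the replicate number as a block (-0.93, adjusted p = 0.0021, and -0.71, adjusted p = 0.017, edgeR). Markers of astrocytes and of the oligodendrocyte lineage differed too: over both states 4 of 6 and 5 of 8 were lower in KO+vector, with the summed levels given above. The 5 lineage markers ran from -1.62 (Cspg4) to -6.32 (Sox10, at 0 counts in 4 of 20 DIV18 libraries) on the log2 scale. Mbp, which had the most counts in that sum (1643 to 3022 at DIV18), was not among them. Of 3 tested microglial markers 1, Csf1r, was lower by 1.25 on the log2 scale. Over both states the summed astrocyte markers averaged 956.8 CPM in WT, 924.4 in KO+vector and 1501.4 in NT. The oligodendrocyte lineage averaged 122.1, 133.1 and 187.0 in the same order, and Gabrd 20.5, 15.7 and 24.2. Neuronal markers moved as well: of 5 excitatory markers Slc17a6 (0.66, adjusted p = 0.00048, edgeR) and Tbr1 (0.46, adjusted p = 0.020, edgeR) were higher, of 5 general neuronal markers Snap25 was lower (-0.26, adjusted p = 0.016, edgeR), and 0 of 8 inhibitory markers were called. Their part in the Gabrd difference was not tested.

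**Figure D4:**
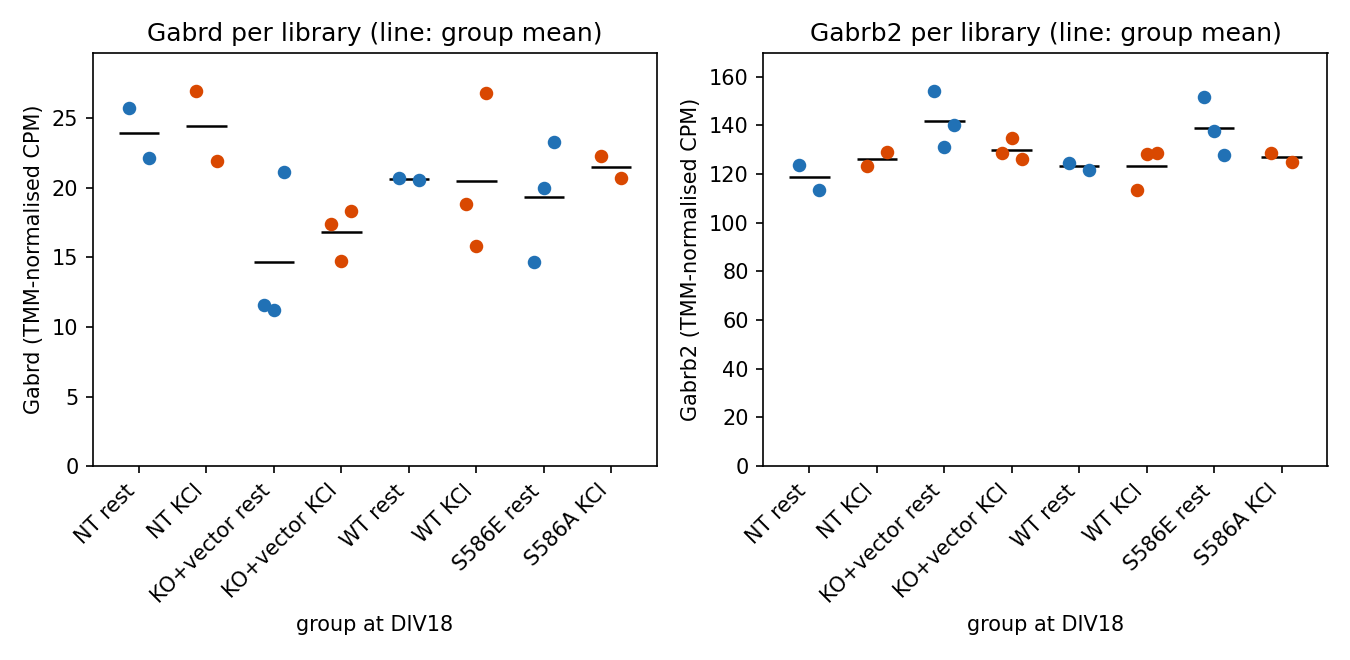
Gabrd (left) and Gabrb2 (right) in each DIV18 library as TMM-normalised CPM (points, blue at rest and orange under KCl), with the group mean as a line. Gabrd is 21.9 to 27.0 in NT and 11.2 to 21.1 in KO+vector, and the resting KO+vector libraries are split into 2 low values and 1 high value.

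Gabrb2 leaned the other way at rest. It was 123.7 and 113.6 CPM in NT and 154.3, 131.3 and 140.2 CPM in KO+vector, groups that did not overlap. The log2 difference was 0.26 at rest (SE 0.09, adjusted p = 0.084, edgeR), 0.04 under KCl (adjusted p = 0.86, edgeR) and 0.15 over both states (SE 0.06, adjusted p = 0.12, edgeR), so it missed the threshold in each. It passed at rest with DESeq2 (0.26, adjusted p = 0.045) and, with protein-coding transcripts alone, at rest (0.30, adjusted p = 0.032, edgeR) and over both states (0.18, adjusted p = 0.038, edgeR). The other 5 members differed over both states by -0.07 to 0.13 (adjusted p from 0.62 to 0.96, edgeR).

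The addback cultures lay between or beside these groups. They carried more Smarcc2 RNA than NT: 756.1 and 816.35 CPM in resting WT and 737.2 to 1088.9 in WT under KCl. It was 1163.7 to 1276.4 in resting S586E and 1303.4 and 1339.9 in S586A under KCl, against 236.9 to 282.7 in NT. WT exceeded NT by a log2 difference of 1.65 at rest and 1.71 under KCl (adjusted p = 5.75e-05 and 1.4e-05, edgeR). Comparisons of the substitutions with WT and of addback with NT thus also differ in Smarcc2 level. Gabrd was 20.6 and 20.7 CPM in resting WT libraries and 15.8, 18.8 and 26.8 CPM in WT under KCl. It was 14.7, 19.99 and 23.2 CPM in resting S586E and 20.7 and 22.2 CPM in S586A under KCl. Its log2 difference from KO+vector was 0.50 in WT at rest (SE 0.24, adjusted p = 0.47, edgeR), 0.29 in WT under KCl (SE 0.22, adjusted p = 1.0, edgeR), 0.41 in S586E (SE 0.22, adjusted p = 0.75, edgeR) and 0.36 in S586A (SE 0.24, adjusted p = 0.56, edgeR). All 4 values are positive and none passed. The comparisons share their KO+vector libraries within a state. Without the low-count filter the resting WT value passed (0.52, adjusted p = 0.036, edgeR), while calls over all genes went from 3 to 605. WT differed from NT by -0.22 at rest and -0.26 under KCl (adjusted p = 0.92 and 0.76, edgeR).

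With edgeR, 0 of the 7 members were called in the 8 addback comparisons, where calls among all genes were 0.0143% and 0.00955% for WT against KO+vector at rest and under KCl, 0.105% and 0.201% for WT against NT, 0.0191% for S586E against KO+vector (4 genes, or 14 with the replicate number as a block), 0.00955% for S586A against KO+vector, and 0% for each substitution against WT. The comparisons with WT had 2696 genes (S586E) and 1823 (S586A) at an unadjusted p under 0.05 in edgeR, and DESeq2 called 316 and 19. At an unadjusted p under 0.05, 2 members passed in WT against KO+vector at rest (Gabrb1 and Gabrb2), 1 in S586E against WT (Gabrb1) and 0 in the other 6, and DESeq2 called 0 members in each. Gabrb1 was 293.2 to 304.9 CPM in the 3 resting S586E libraries and 227.2 and 248.6 CPM in resting WT, groups that do not overlap. The log2 difference was 0.33 (SE 0.11, unadjusted p = 0.006, adjusted p = 0.21, edgeR), and it passed without the low-count filter (0.32, adjusted p = 0.048, edgeR). Leaving out the filter moved the calls over all genes from 0 to 782 in that comparison. Resting WT was below KO+vector for Gabrb1 by a log2 difference of -0.25 and for Gabrb2 by -0.20 (adjusted p = 0.38 for both, edgeR). Across all 8 comparisons the members' log2 differences ran from -0.30 (Gabra3, S586E against KO+vector) to 0.50 (Gabrd, WT against KO+vector at rest).

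**Figure D5:**
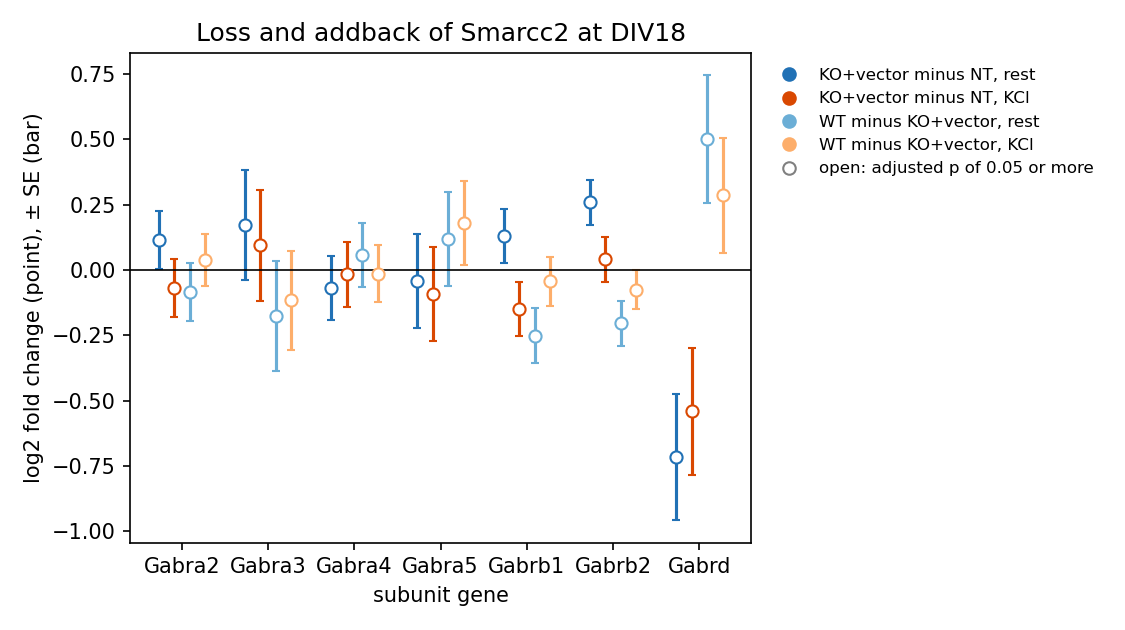
Log2 fold change (points) with its SE (bars) of each subunit gene for KO+vector against NT and for WT addback against KO+vector, at rest and under KCl (2 or 3 libraries per group); all points are open, since none passed an adjusted p of 0.05 in a single state. Gabrd stands at -0.72 and -0.54 for the knockout and at 0.50 and 0.29 for the addback.

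Other genes of the GABA system were called between KO+vector and NT over both states, beside the 11.2% of all genes given above. Of 8 tested subunit genes outside the 7, Gabrg3 rose by 0.61 (SE 0.10, adjusted p = 0.00088, edgeR) and Gabrg1 by 0.35 (SE 0.11, adjusted p = 0.045, edgeR), and their median was 0.09 against 0.02 for all genes. Of 32 tested synapse genes, 3 rose and 3 fell, with a median of -0.08. The trafficking genes Hap1 (0.75), Plcl1 (0.52) and Trak1 (0.24) rose, while Nlgn2 (-0.28), Iqsec3 (-0.24) and the GABA-B receptor gene Gabbr1 (-0.19) fell.

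Across the 20 DIV18 libraries, Gabrd was the most variable member and Gabrb2 the least, with coefficients of variation of 22.8% and 7.95%. Gabra3 followed Gabrd at 16.2%, and the others lay between 8.78% and 13.2%. As a description over these libraries, which share constructs, states and composition, the log CPM of Gabra2 and Gabrb2 went together (Pearson r = 0.63) and Gabrd went against Gabra3 (r = -0.58), Gabra2 (r = -0.56) and Gabrb2 (r = -0.54). The genes most like each member among 10667 expressed genes were Parm1 (r = 0.87) and Nkain3 (0.85) for Gabra2, Tmx4 (0.86) and Cbln1 (0.82) for Gabra3, and Ppp3cb (0.85) and Extl2 (0.83) for Gabra4. They were Tmem106b (0.78) and Ncoa4 (0.77) for Gabra5, Sel1l3 (0.90) and Cpeb4 (0.90) for Gabrb1, Sox11 (0.90) and Tmtc1 (0.90) for Gabrb2, and Atf7ip (0.86) and Rgs3 (0.86) for Gabrd.

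The transcripts behind the gene sums differed in kind. Gabra5 had 3 annotated protein-coding transcripts of 2224 to 2671 bases, and the shortest, Gabra5-203, held 17.1% of the gene's TPM at DIV7 and 31.2% at DIV18. Gabra2 had a single protein-coding form, Gabra2-203, with 32.4% (SD 3.00, n = 4) at DIV7 and 48.6% (SD 4.28, n = 20) at DIV18, while transcripts annotated for nonsense-mediated decay held 48.1% and 42.5%. Gabrd-201, the protein-coding form of delta, held 86.0% (SD 8.43) and 96.1% (SD 2.53). Gabrb1 shows how far TPM follows length: its short form Gabrb1-202 (799 bases) held 39.9% of the gene's TPM at DIV7 with 2.77% of its counts, beside Gabrb1-201 of 13737 bases. Poly(A) selection and ribosomal depletion keep different RNA, so these forms cannot be compared by age alone.

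On GRCm38, Gabra2 (chr5:70957597-71095849), Gabra4 (chr5:71569749-71658308) and Gabrb1 (chr5:71658113-72149037) are neighbours, and the annotated starts of Gabra4 and Gabrb1 overlap head to head by 196 bases. Between DIV7 and NT at rest Gabra4 rose by 1.40 and Gabrb1 by 0.47 on the log2 scale, and over the DIV18 libraries their correlation was low (r = 0.09). Gabra5 lies at chr7:57407672-57510059, Gabra3 at chrX:72432681-72656848, Gabrb2 at chr11:42419757-42629028 and Gabrd at chr4:155384980-155398112. RefSeq promoter sequences (GRCm38.p6) were matched for 6 members in 10 windows of the 250 bases before a start. Those of Gabra5 and Gabra2 are shown because Gabra5 had the highest alpha TPM at DIV7 and Gabra2, counting all transcripts, at DIV18. Both are on the minus strand and read 5′ to 3′ toward the start, with capitals marking a CCAAT box (CCAAT, or ATTGG on the other strand) or a GC box (GGGCGG).
Gabra5, chr7:57510060-57510309: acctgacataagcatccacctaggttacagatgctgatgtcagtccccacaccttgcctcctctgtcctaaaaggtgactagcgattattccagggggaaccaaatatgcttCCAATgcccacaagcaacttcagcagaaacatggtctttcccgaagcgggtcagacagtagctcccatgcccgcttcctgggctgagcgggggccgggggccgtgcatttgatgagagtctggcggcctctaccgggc
Gabra2, chr5:71095850-71096099: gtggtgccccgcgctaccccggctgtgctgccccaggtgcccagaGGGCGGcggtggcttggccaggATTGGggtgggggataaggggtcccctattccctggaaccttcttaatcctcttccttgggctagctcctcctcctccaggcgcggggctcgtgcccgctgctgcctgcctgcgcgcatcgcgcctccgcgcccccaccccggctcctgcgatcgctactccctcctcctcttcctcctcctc
The Gabra5 window has 56.4% G and C and 9 CpG, with 1 CCAAT match, and the Gabra2 window 70.0% and 18, with 1 CCAAT match and 1 GC box, none overlapping another. Searched on both strands in all 10 member windows, CCAAT was found in 6 (33.9% of 32851 RefSeq windows of the same length), GGGCGG in 3 (32.7%) and TATAAA in 3 (12.4%). The cAMP response element TGACGTCA (1.55%), the AP-1 site TGACTCA (4.46%), the E-box CACGTG (6.02%) and the EGR sites GCGGGGGCG (2.57%) and GCGTGGGCG (0.536%) were in none of the 10. The 2 Gabra3 windows overlap by 138 bases and share matches, so that the 7 CCAAT matches are 6 positions and the 3 TATAAA matches 2, and the windows are not independent. A match is a stretch of letters and no evidence of binding.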

How the data were processed

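Each deposited table holds transcripts with estimated counts and TPM, in the layout of kallisto, which the submitters' processing notes name with cutadapt and FastQC; the kallisto strand setting, the index and the build are not given in the sources used here. The estimated counts deposited by the authors are their assignments of reads to transcripts. The TPM deposited by the authors are those counts scaled by effective length. Of 142552 transcripts, 141429 (99.2%) matched GENCODE M21 (GRCm38), and the other 1123 (at most 0.467% of counts) were left out.

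Estimated counts were summed by gene, rounded, and tested in edgeR 4.0.16 by its quasi-likelihood F test (R 4.3.3; two-sided, TMM, filterByExpr, Benjamini-Hochberg over all genes tested, called at an adjusted p under 0.05). SE is the log2 fold change over the root of F. DIV7 (4 libraries), DIV18 (20) and all 24 were fitted apart, with 19 contrasts. CPM are TMM-normalised, from the fit of the comparison. The spread (biological coefficient of variation) was 6.44%, 14.6% and 13.5%, with 2, 12 and 14 residual degrees of freedom. The tests were checked on simulated counts.

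Members and lists were chosen with earlier results of these data known. Named genes were the 7 members, Smarcc2 and Fos, called genes of the lists (at most 8 per list; some are not reported here), and the 2 genes per member with the highest Pearson r (log2 of CPM + 1, mean of at least 5 CPM, no predicted genes). The RefSeq promoter table had no window for Gabrd. Alternatives were DESeq2 1.42.0, other size factors, no filter, length offsets, protein-coding transcripts alone, the replicate number as a block, only the groups compared, and leaving out each library.

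Same-numbered libraries deviated together across genes in the 3 comparisons with 3 shared numbers: KO+vector KCl against rest (r = 0.16, 0.13 and 0.33), WT against KO+vector under KCl (0.18, 0.20, 0.35) and S586E against KO+vector (0.38, 0.17, 0.37). The main fits held no replicate block, so every SE and adjusted p given from them ignores such pairing. With the block, calls over all genes went from 15 to 16, stayed at 2, and went from 4 to 14 in these comparisons. WT against NT, with fewer shared numbers, had r = 0.195 at rest, and 0.236 and 0.238 under KCl. There the block moved the calls from 22 to 65 and from 42 to 85.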

Additional observations from a re-analysis of the deposited data

How the results depend on the processing

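The age differences of Gabra5, Gabra4, Gabra2, Gabrb2 and Gabrd kept their direction and their call in both states in each of the 11 alternative fits per state. The smaller calls were less stable. At DIV7 under KCl, 3 members were called in the main analysis, 6 with the replicate block, 1 with protein-coding transcripts alone and 0 to 2 when a library was left out, and Gabrd turned to -0.11 without KCl replicate 2. For KO+vector against NT at rest, 0 members became 1 without the low-count filter, 1 with the replicate block, 1 with protein-coding transcripts alone, 2 with DESeq2 and 0 to 1 when a library was left out. Under KCl, 0 became 1 without the filter and 1 with the block. Over both states, 1 became 2 with protein-coding transcripts alone and 0 to 1 when a library was left out. Without the filter, 1 member passed in WT against KO+vector at rest and 1 in S586E against WT. With the replicate block Gabrd passed in KO+vector against NT at rest (-0.93, adjusted p = 0.0021, edgeR) and under KCl (-0.71, adjusted p = 0.017, edgeR), and at DIV7 Gabra3 (0.23, adjusted p = 0.0084), Gabra4 (0.24, adjusted p = 0.017) and Gabrb1 (0.11, adjusted p = 0.027) passed under KCl, while Gabra3 passed between the ages under KCl (-0.46, adjusted p = 0.0097, edgeR). The causes were not tested. Over all genes the block moved the calls from 3371 to 5854 at DIV7, where same-numbered libraries correlated at r = 0.10, and from 1236 to 1695 for KO+vector against NT at rest (r = 0.05 and 0.15). These share only a number, and the block changed no other member's call. In NT, KCl against rest, the numbers looked crossed (r = -0.12): the block gave 8 calls, the crossed numbers (added after the data were seen) 6 and no block 2, with 0 members in each.

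Differences in share between resting NT and DIV7 depended on the unit. From estimated counts not scaled by length they were 4.22 percentage points for Gabra4, -19.9 for Gabra5, 9.43 for Gabrb2 and 2.70 for Gabrd. From protein-coding transcripts alone they were 5.44 for Gabra2, -34.6 for Gabra5, 15.7 for Gabrb2 and 9.03 for Gabrd. With protein-coding transcripts alone (class shares and order of levels added after the data were seen), Gabrb2 stayed the highest of the 7 by mean TPM in all 8 DIV18 groups, and Gabra5 in place of Gabra2 was the highest alpha gene in all 8. As shares of all 19 subunit genes (added after the data were seen) they were 1.11 for Gabra2, 2.96 for Gabra4, -15.8 for Gabra5, 5.48 for Gabrb2 and 3.36 for Gabrd. The small difference of Gabrb1 (-0.50) had no stable sign: it was 1.4996 from counts, 0.17 with annotated lengths, and -1.63 to 0.64 when a library was left out. Between the ages, Gabra3 at rest ranged from -0.35 to 0.036 when a library was left out, the highest without the resting NT replicate 1. TPM without centring (added after the data were seen) gave -0.63 and -0.93 for Gabra2 at rest and under KCl, -1.09 and -0.87 for Gabrb1, and -0.25 for Gabra4 under KCl.

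Counts over all genes moved by more than 1.5 times in every comparison but those between the ages. Over all alternatives they were 1459 to 5854 for KCl at DIV7 (main 3371), 0 to 192 in NT (2), 5 to 513 in KO+vector (15), 1 to 196 in WT (9) and 28 to 442 for their mean (94). For KO+vector against NT they were 100 to 2016 at rest (1236), 37 to 1438 under KCl (560) and 1095 to 3003 over both (2348). They were 2 to 605 and 2 to 126 for WT against KO+vector (3 and 2), 2 to 378 and 1 to 704 for WT against NT (22 and 42), 0 to 782 and 0 to 225 for S586E and S586A against WT (0 and 0), 2 to 314 and 2 to 531 against KO+vector (4 and 2), and 196 to 656 for the difference of responses between the ages (408). Gabrd had the fewest counts of the members (147 to 606), which limits its precision.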
